A study of Mus musculus with 24 samples.

Results

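The genes described here are Mapt, Map4, Map2, Map1a, Map1b, Map6 and Map7, the 7 structural microtubule-associated protein (MAP) genes named for this description out of 56923 gene identifiers in the deposited tables. They were selected on earlier results of these same data, in which Mapt stood out by its rise between postnatal day 1 (P1) and day 7 (P7) in control cardiomyocyte (CM) nuclei. The values of that step in controls are therefore given as a description, without a test. All 7 genes passed the filter on low counts, together with 20368 genes in all.

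Structural MAPs bind along the microtubule wall, where they set its stability, its spacing and its access to motor proteins. Mapt encodes tau, best known from axons, and it shares its microtubule-binding repeats with MAP2, the dendritic relative, and MAP4, the widely expressed member found in muscle. MAP1A and MAP1B form a second family of precursor proteins that are cut into heavy and light chains, with MAP1B typical of growing neurons and MAP1A of mature ones. MAP6, also called STOP, makes microtubules resistant to cold, and MAP7, also called ensconsin, recruits kinesin-1. In CMs the microtubule array is rebuilt around birth, as centrosomal proteins such as PCM1 move to the nuclear envelope.

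RNA was measured by 3′ end sequencing of CM nuclei from frozen mouse ventricles, sorted by their PCM1 stain. The mice were on a C57BL/6N background and of both sexes, and every animal carried floxed Casp2 alleles. Control libraries came from XMLC2(-) Casp2 fl/fl mice without Cre, and Casp2-depleted libraries from XMLC2(+) Casp2 fl/fl mice, in which Cre driven by the Xenopus MLC2 promoter deletes Casp2 in CMs. Each library pooled the nuclei of 15 hearts at P1, of 6 hearts at P7 or of 2 hearts at P14, so that variation between single animals is averaged within a library. Of 24 libraries, 4 for each of 6 groups, 21 were used. Replicate 1 of the P1 control group, replicate 3 of the P14 control group and replicate 1 of the P14 Casp2-depleted group were left out by the study.

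The 21 libraries held 891817 to 2924097 reads on genes, and the P14 libraries held the fewest, 891817 to 1278961. The share of uniquely placed reads on no gene was 36.8 to 73.9% at P1, 34.3 to 64.3% at P7 and 63.7 to 76.1% at P14. In controls it was 60.7 to 73.9% at P1 and 36.7 to 54.7% at P7, without overlap, while the Casp2-depleted ranges overlapped. This share was not adjusted for in the values below, except where a fit that holds it is named. All 11 CM markers had reads in every group, with a summed level of 12737 to 89656 CPM, a gene's reads scaled to the library's total reads on genes. Casp2 itself had 17 reads in all, 9 in the P7 control and 8 in the P7 Casp2-depleted group, so the deletion could not be checked in these counts. In such bulk libraries, fewer nuclei of a type and less RNA per nucleus cannot be told apart.

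In CM nuclei of both genotypes, Mapt was low at P1 and many times higher at P7, Map4 was highest at P7 and lower again at P14, and Map1b, Map2, Map1a and Map7 overlapped between neighbouring days. None of the 7 genes passed the test across all genes in any tested step between days, and none was called as different between Casp2-depleted and control nuclei on any day. Calls are those of edgeR's quasi-likelihood test and need an adjusted p (Benjamini-Hochberg, over all tested genes) below 0.05 together with an absolute log2 fold change above 1.

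All 7 genes lie on different chromosomes of GRCm39. Mapt spans 100.9 kb of chromosome 11, from 104122024 to 104222946, on the plus strand. Map4 (chromosome 9, 109751712 to 109913023), Map2 (chromosome 1, 66214327 to 66481746), Map1a (chromosome 2, 121120071 to 121141313), Map6 (chromosome 7, 98916530 to 98986344) and Map7 (chromosome 10, 20024210 to 20157336) lie on the plus strand too, and Map1b (chromosome 13, 99557954 to 99653137) on the minus strand. The deposited counts cover the whole gene, introns included.

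Relative to gene length, Map4 was the most abundant of the 7 over the 21 libraries, with a mean of 4.04 CPM per kb of gene span. Map1b with 2.40, Mapt with 2.13 and Map1a with 1.95 CPM per kb followed, then Map7 with 0.685, Map2 with 0.192 and Map6 with 0.0985. Per kb of annotated exons the order of the middle genes changed, with Mapt before Map1b and Map7 before Map1a, while Map4 stayed at the top and Map2 and Map6 at the bottom. Because the libraries capture 3′ ends, both length scales are only approximate for comparing genes.

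**Figure D1:**
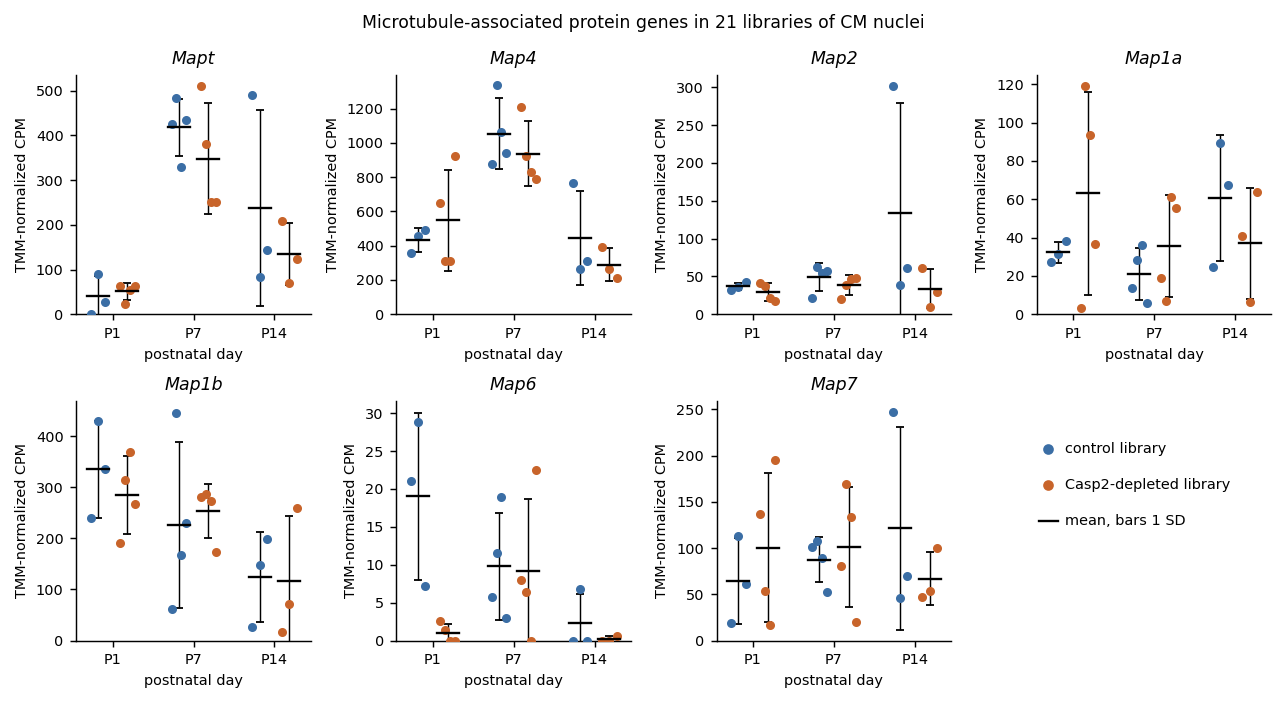
TMM-normalized CPM of the 7 genes (vertical axes, linear, a scale of its own for each gene) in 21 libraries by postnatal day, with control libraries in blue and Casp2-depleted libraries in orange, each dot 1 library, the line the mean and the bars 1 SD (cut off at 0). All 8 P7 libraries lie above all 7 P1 libraries for Mapt, and the control part of this is the step that led to its choice. The share of all genes separated in this way over both genotypes was not counted. The dots of Map2, Map1a, Map1b and Map7 overlap between neighbouring days in both genotypes.

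For Mapt, the P1 control libraries held 1.20, 90.9 and 27.0 CPM after TMM normalization, and the 4 P7 control libraries 425, 483, 329 and 434 CPM. The lowest P1 library had only 2 Mapt reads, and 165 reads were counted in the P1 control group as a whole. As a description of the step that led to the choice of this gene, the group means were 39.7 ± 46.2 CPM (SD, n = 3) and 418 ± 64.2 CPM (SD, n = 4), a fitted log2 fold change of 3.39 ± 0.77 (SE). Without P1 control replicate 3 it was 4.90, and the median of all tested genes moved by 0.21 in this step.

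In Casp2-depleted nuclei, whose libraries are not part of that contrast, the P1 libraries held 62.3, 23.9, 54.2 and 64.0 CPM of Mapt and the P7 libraries 510, 380, 250 and 250 CPM. Every P7 library was above every P1 library, with means of 348 ± 124 and 51.1 ± 18.7 CPM (SD, n = 4 each), a ratio of 6.81. The log2 fold change was 2.76 ± 0.67 (SE) with an unadjusted p of 3.29e-05, and its adjusted p of 0.112 in edgeR's test missed the threshold over 20368 genes. In this comparison 5 genes were called, 0.0245% of those tested, and 1415 genes had an unadjusted p below 0.05. Of 32 alternative settings, 3 called Mapt here, DESeq2 with an adjusted p of 0.0418, libraries thinned to equal depth with 0.0350 and edgeR's robust fit with 0.0344. Over all 32 the adjusted p ran from 0.0344 to 0.907 and the log2 fold change from 2.44 to 3.01. Groups that do not overlap were found for 1.96% of all genes in this step, and for Mapt alone among the 7.

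At P14 the Mapt values spread widely. The control libraries held 489, 83.3 and 143 CPM, with replicate 1 above all P7 control libraries and the other two below them. The Casp2-depleted libraries held 209, 70.6 and 125 CPM, all below the P7 libraries of that genotype. Without TMM factors the groups overlapped there too, since P14 Casp2-depleted replicate 2 was at 254 CPM and the P7 libraries at 216 to 373 CPM. The log2 fold changes from P7 were -0.81 ± 0.68 (SE) in controls, with an adjusted p of 0.556, and -1.37 ± 0.70 (SE) in Casp2-depleted nuclei, with an adjusted p of 0.342. The median of all genes moved by -0.75 and -0.61 in these steps. The size of the control value of Mapt depended on single libraries. It was -1.88 without P14 control replicate 1, beside -1.03 for the median gene in that fit, and -0.29 without P14 control replicate 2. In Casp2-depleted nuclei it was -0.85 without P14 replicate 3. When the fit also held the share of reads outside genes, the control value was 0.16 and the Casp2-depleted value -0.20, and with all 24 libraries the control value was 0.09.

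Ordered by mean, Mapt was highest in P7 control nuclei, then in P7 Casp2-depleted (348 CPM), P14 control (238 ± 219 CPM, SD, n = 3), P14 Casp2-depleted (135 ± 70.0 CPM, SD, n = 3), P1 Casp2-depleted and P1 control nuclei. Neighbouring groups in this order overlapped, except that all P14 Casp2-depleted libraries lay above all P1 Casp2-depleted libraries. The share of all genes without overlap between P1 and P14 was not counted, so this separation may be common. Without TMM factors the means were 313 CPM in P7 control, 288 in P14 control and 276 in P7 Casp2-depleted nuclei, so that the latter pair changed places. Per kb of gene span the Mapt level went from 0.393 at P1 to 4.14 at P7 and 2.36 at P14 in controls.

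Map4, the ubiquitous relative of tau, held 358, 457 and 492 CPM in the P1 control libraries and 877, 1341, 1062 and 939 CPM in those of P7. This control step belongs to the contrast used for the choice and is given as a description, with a log2 fold change of 1.28 ± 0.54 (SE). The P1 Casp2-depleted libraries, at 652, 312, 309 and 922 CPM, reached into the range of P7, at 1211, 922, 830 and 789 CPM, and the log2 fold change there was 0.77 ± 0.48 (SE), with an adjusted p of 0.921.

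At P14 Map4 was at 763, 265 and 309 CPM in control libraries and at 394, 264 and 211 CPM in Casp2-depleted libraries, below every P7 library of the same genotype. Without TMM factors this held in Casp2-depleted nuclei, while P14 control replicate 1, at 844 CPM, lay within the P7 control range of 734 to 845 CPM. The log2 fold change from P7 was -1.24 ± 0.53 (SE) in controls, with an adjusted p of 0.285, and -1.69 ± 0.54 (SE) in Casp2-depleted nuclei, with an adjusted p of 0.0575, which missed the threshold. DESeq2 gave -1.34 with an adjusted p of 0.0214 for the Casp2-depleted step, limma-voom with TMM -1.83 with 0.0185 and edgeR's robust fit 0.0222, and 5 of 32 alternatives called it, with adjusted p from 0.0185 to 0.703 over all of them. In the control step 1 of 32 called it, limma-voom with TMM, and the adjusted p ran from 0.0460 to 0.912. Over all 32 the log2 fold change ran from -1.88, without P14 control replicate 1, to -0.41, with the share of reads outside genes in the fit, in controls. In Casp2-depleted nuclei it ran from -1.98, without P14 replicate 2, to -0.78 with the share of reads outside genes in the fit and -0.70 with all 24 libraries.

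Across all genes, 394 were called between P7 and P14 in controls (1.93%) and 613 in Casp2-depleted nuclei (3.01%), nearly all of them lower at P14, and none of the 7 MAP genes was among them. By edgeR, 1 of the 7 had an unadjusted p below 0.05 in each of these steps, against 2720 and 2962 of all genes. By TMM-normalized CPM, groups without overlap were found for 15.4% of all genes in the control step, Map4 among them, and for 13.2% in the Casp2-depleted step, Mapt and Map4 among them.

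**Figure D2:**
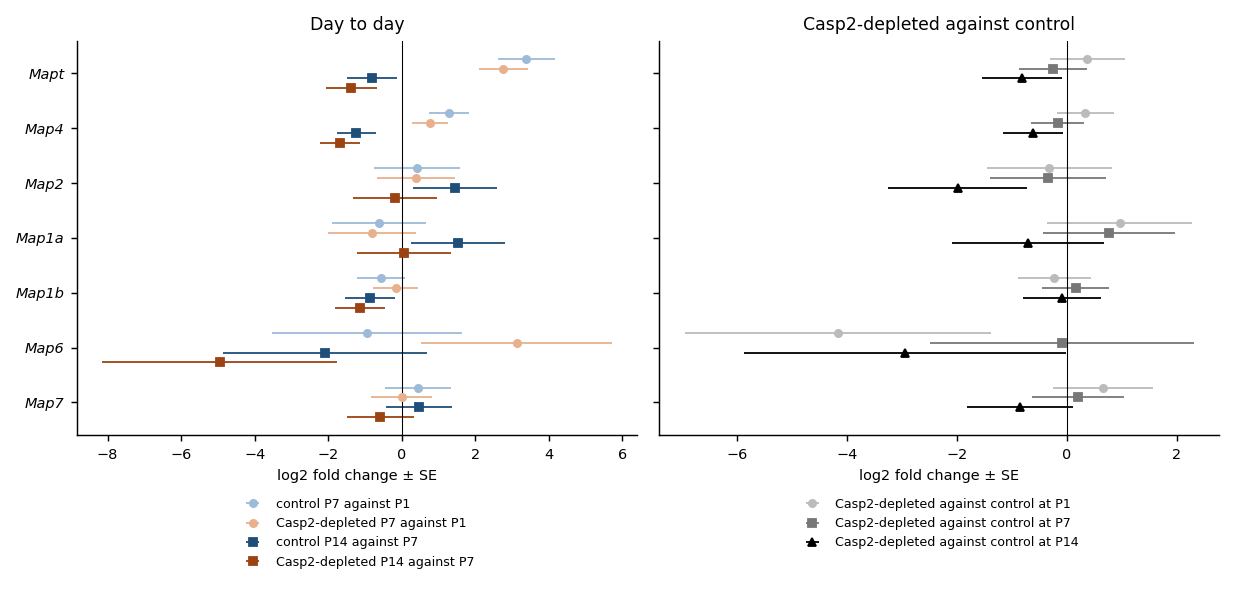
Fitted log2 fold changes of the 7 genes (horizontal axes, bars 1 SE) from day to day in each genotype (left) and between genotypes on each day (right). Mapt from P1 to P7 lies farthest to the right of 0 relative to its bar, at 3.39 in controls and 2.76 in Casp2-depleted nuclei, and the wide bars of Map6 go with its low counts.

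Map2, the dendritic MAP, stayed low, with 32.5, 35.9 and 42.1 CPM in P1 control and 21.4, 62.7, 54.3 and 57.0 CPM in P7 control libraries. In Casp2-depleted nuclei it ranged from 17.0 to 41.7 CPM at P1, from 19.6 to 48.5 at P7 and from 10.1 to 61.3 at P14. One library stood apart, P14 control replicate 1 at 301 CPM, where the other two P14 control libraries held 39.01 and 61.5 CPM. The P14 difference between genotypes of -1.99 ± 1.27 (SE), with an adjusted p of 0.502, became -0.58 without that library, and the control change from P7 went from 1.45 to 0.04.

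Map1b, the early member of its pair, held 239, 430 and 336 CPM at P1 in controls, 61.2, 447, 168 and 230 at P7, and 26.2, 149 and 198 at P14. In Casp2-depleted nuclei the values were 190, 315, 368 and 267 CPM at P1, 282, 287, 272 and 174 at P7, and 17.6, 71.2 and 260 at P14. The group means went down with age in both genotypes, from 335 ± 95.7 to 124 ± 88.5 CPM in controls (SD, n = 3 each) and from 285 ± 75.7 (SD, n = 4) to 116 ± 127 CPM (SD, n = 3) in Casp2-depleted nuclei, but neighbouring days overlapped, and without TMM factors the control means at P7 and P14 were 158 and 172 CPM. The steps from P7 to P14 were -0.87 ± 0.68 (SE) and -1.13 ± 0.68 (SE), with adjusted p of 0.507 and 0.365. Single libraries moved both by over 1.5 times. In controls the value was -1.37 without P14 replicate 4, -0.39 without P14 replicate 1 and -0.18 without P7 replicate 2, and in Casp2-depleted nuclei it ran from -2.28 without P14 replicate 4 to -0.59 without P14 replicate 3.

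Map1a, the late member of that pair, showed no common course. Its control libraries held 27.1 to 38.1 CPM at P1, 6.00 to 36.0 at P7 and 24.7 to 89.3 at P14, and its Casp2-depleted libraries 3.02 to 119 CPM at P1, 7.14 to 61.2 at P7 and 6.30 to 63.6 at P14. The largest of its fitted steps was 1.53 ± 1.28 (SE) between P7 and P14 in controls, with an adjusted p of 0.552.

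Map7, the kinesin-1 recruiter, spread within groups as much as between them. It held 19.3 to 113 CPM at P1, 52.5 to 108.03 at P7 and 46.5 to 247 at P14 in controls, and 16.9 to 195, 20.4 to 169 and 47.2 to 99.6 CPM in Casp2-depleted nuclei. From P1 to P7 in Casp2-depleted nuclei its log2 fold change was 0.00 ± 0.83 (SE). As for Map2, the highest value was that of P14 control replicate 1.

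Map6, the cold-stability factor, was near the detection limit, with 219 reads in 14 of the 21 libraries. Reads were counted as 85 in the P1 control, 7 in the P1 Casp2-depleted, 60 in the P7 control, 57 in the P7 Casp2-depleted, 9 in the P14 control and 1 in the P14 Casp2-depleted group. The P1 control libraries, at 21.1, 28.9 and 7.15 CPM, all lay above the P1 Casp2-depleted libraries, at 2.51, 1.40, 0 and 0 CPM. By summed reads this was 21.5-fold less in Casp2-depleted nuclei, with a 95% exact counting interval of 10.01- to 55.2-fold that leaves out the spread between libraries. In edgeR's fit the log2 fold change was -4.17 ± 2.79 (SE) and its adjusted p was 0.785. A group difference without overlap was found for 3.4% of all genes at P1. A count of 0 allows up to 3 reads, 1.03 to 3.36 CPM in the libraries used, and this and the counting interval cover counting error only.

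Between genotypes, 0 of the 7 genes were called at P1, at P7 or at P14. At P1 and at P7 edgeR called 0 of all genes (0%), with 1303 and 791 genes at an unadjusted p below 0.05, while DESeq2 called 105 and 25 genes, limma-voom with TMM 49 and 0, and limma-voom with quantile normalization 63 and 1, none of them among the 7. At P14 edgeR called 47 genes, or 0.231%, with 2379 genes at an unadjusted p below 0.05. None of the 7 reached an unadjusted p below 0.05 in these comparisons. All of them had negative fitted values at P14, with a median of -0.82 against 0 for all genes, but this shared sign depended on single libraries and settings. Without P14 control replicate 1, Mapt was at 0.25, Map4 at 0.01 and Map7 at 0.20, while the other members stayed negative. Map6 was at 2.05 without P14 control replicate 2 and at 0.18 with limma-voom and quantile normalization. Map1b, at -0.10, was at 0.04 with RLE factors and 0.18 with all 24 libraries.

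The intervals show what these libraries could resolve. For Mapt at P7 the difference was -0.26 ± 0.62 (SE), with a 95% interval from -1.59 to 1.06, and for Map4 it was -0.17 ± 0.48 (SE), from -1.19 to 0.85. At P14 the interval of Mapt ran from -2.37 to 0.72 around -0.82, and that of Map4 from -1.80 to 0.56 around -0.62. Without P14 control replicate 1, which had the highest Mapt and Map4 among the P14 libraries, these values became 0.25 and 0.01. At P1 Mapt differed by 0.37 ± 0.68 (SE) and Map4 by 0.33 ± 0.52 (SE). Genes without overlap between genotypes made up 1.64% of all genes at P7 and 5.15% at P14, and none of the 7 was among them on these days.

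The change from P1 to P7 itself differed between genotypes by -0.63 ± 0.92 (SE) for Mapt and by -0.50 ± 0.71 (SE) for Map4, and that from P7 to P14 by -0.56 ± 0.95 (SE) and -0.45 ± 0.73 (SE). For Mapt the first of these was -2.13 without P1 control replicate 3 and -0.08 without P1 control replicate 2, and for Map4 it ran from -0.70 without P1 Casp2-depleted replicate 2 to -0.13 without P1 Casp2-depleted replicate 4. No member was called in either interaction, with a smallest adjusted p among the 7 of 1.00 and 0.958. Over all genes edgeR called 0 (0%) in the first interaction, with 1298 genes at an unadjusted p below 0.05, and 7 (0.0344%) in the second. The P7 libraries enter both steps of a genotype, so the steps are not independent of each other. The first interaction contains the control step from P1 to P7 that led to the choice of Mapt, so it is not free of that choice. Libraries of that step also enter the control change from P7 to P14, the genotype comparisons at P1 and P7 and the second interaction.

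Within a library, the ratio of Mapt to Map4 reads does not depend on how libraries are scaled. It was 0.00337, 0.199 and 0.0549 in P1 control libraries and 0.0694 to 0.175 in P1 Casp2-depleted libraries. At P7 it was 0.310 to 0.484 in control and 0.302 to 0.421 in Casp2-depleted libraries, and at P14 0.314 to 0.641 and 0.267 to 0.590. All 14 libraries of P7 and P14 thus lay above all 7 libraries of P1. How often other pairs of genes separate in this way was not counted. The control ratios at P1 and P7 belong to the step that led to the choice of Mapt and are a description. The lowest of them rests on 2 Mapt reads. Over both genotypes, the P14 ratios reached over those of P7 on both sides, although both genes had lower mean CPM at P14. As reads are not corrected for length, the ratio compares libraries and not the abundance of the gene pair.

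Mapt took 0.173 to 7.65% of the reads on the 7 genes at P1, and 15.7 to 28.2% at P7. At P14 its share was 12.3 to 27.2%. Map1b took 17.5 to 42.7% at P1, 4.07 to 18.002% at P7 and 1.41 to 32.9% at P14. Map4 held the largest share in 18 of 21 libraries, and Map1b in the other 3, replicates 2 and 3 of the P1 Casp2-depleted group and replicate 4 of the P14 Casp2-depleted group.

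**Figure D3:**
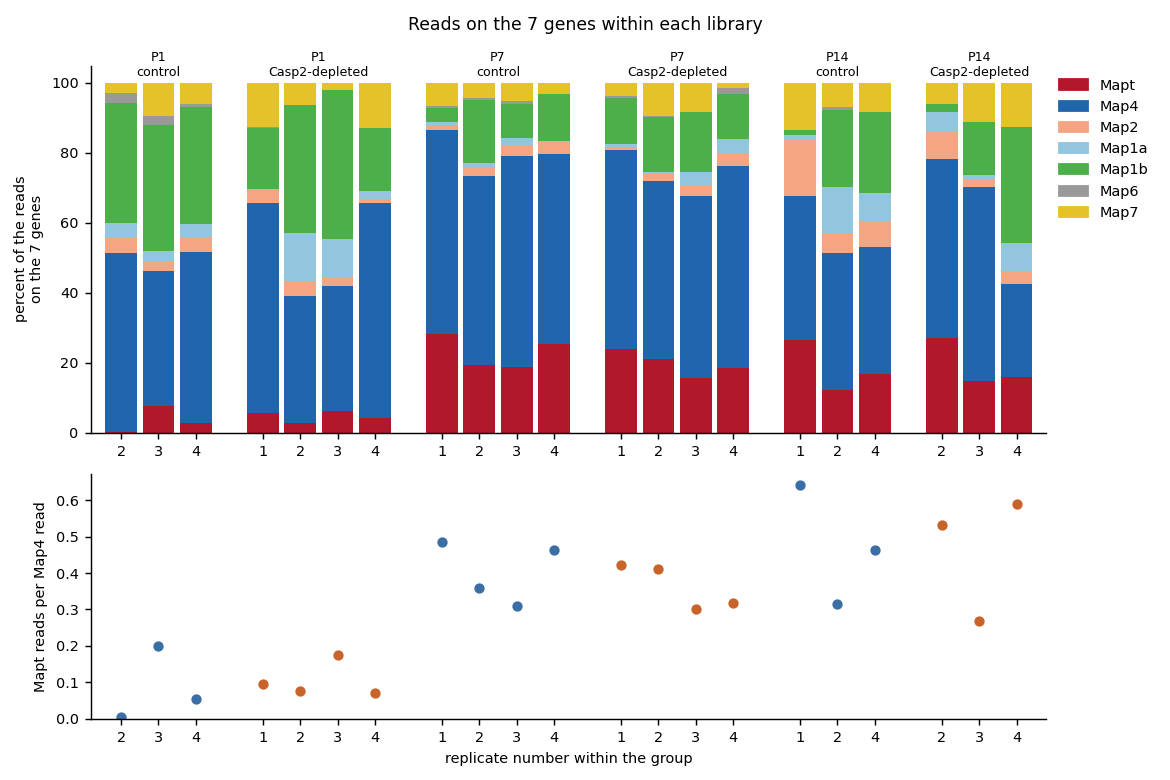
Upper panel, percent of the reads on the 7 genes that fell on each gene, by library and group (bars sum to 100). Lower panel, Mapt reads per Map4 read in the same libraries (blue, control, and orange, Casp2-depleted), which stay at or below 0.199 at P1 and at or above 0.267 at P7 and P14.

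Since tau, MAP2 and MAP1B are known from neurons, markers of neurons were summed in each library. Of 14 neuron markers, 13 had at least 1 read, while Nefl was at 0, and Nefm had 1 read. Gap43 (2210 reads), Rbfox3 (1751 reads), Stmn2 (1541 reads) and Chat (1011 reads) held the most. The summed level was 132 to 637 CPM of reads on genes at P1, 72.7 to 356 at P7 and 253 to 528 at P14. At P14 the genotypes did not overlap in this sum, with 253 to 416 CPM in control and 517 to 528 CPM in Casp2-depleted libraries. Mapt by the same scale was 1.61 to 83.5 CPM at P1, 216 to 373 at P7 and 108.1 to 541 at P14. The library with the highest neuron sum of all 21, in the P1 Casp2-depleted group, had 637 CPM of neuron markers and 65.5 CPM of Mapt. The part of neuron RNA in the Mapt values was not tested. The summed level of 6 Schwann cell and glia markers was 18.7 to 268 CPM at P1, 14.8 to 106 at P7 and 0 to 236 at P14. Of this list Fabp7 was at 0 in all libraries. Tubb3 and Stmn2 are members both of the neuron markers and of the lists of tubulins or other microtubule-binding proteins.

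**Figure D4:**
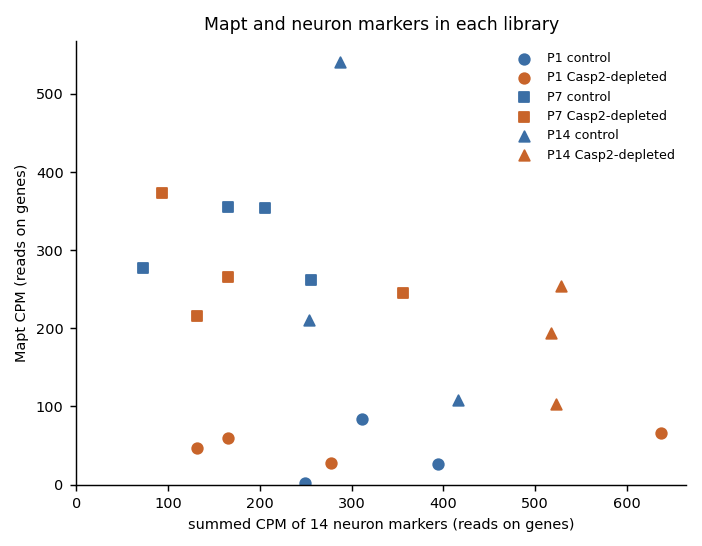
Mapt (vertical axis) against the summed level of 14 neuron markers (horizontal axis), both in CPM of reads on genes, with 1 point per library (circles P1, squares P7, triangles P14, blue control, orange Casp2-depleted). P7 libraries sit at 216 to 373 CPM of Mapt over the lower range of the neuron sum. P1 libraries sit at or below 83.5 CPM of Mapt, with neuron sums of 132 to 637 CPM.

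The summed level of the CM markers was 23544 to 80466 CPM at P1, 47898 to 89656 at P7 and 12737 to 47014 at P14, so that in both genotypes its group median was highest at P7, the day of the highest Mapt and Map4 means, and lowest at P14. Endothelial markers were at 144 to 468 CPM at P7 and 53.2 to 1115 CPM at P14. Fibroblast markers were at 75.4 to 315 CPM at P1, 78.9 to 213 at P7 and 174 to 379 at P14, mural markers at 83.5 to 240, 36.8 to 131 and 1.56 to 305, and macrophage markers at 63.1 to 175, 42.0 to 233 and 44.9 to 303 CPM. The part of these shifts in the values of the 7 genes was not tested.

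Reads of genes next to or within the 7 loci were counted too, since the strand setting of the counting is not stated. Kansl1, the chromatin regulator gene on the opposite strand just downstream of Mapt, had 15606 reads and went from 394 ± 135 CPM (SD, n = 3) at P1 to 598 ± 178 (SD, n = 4) at P7 in controls. In Casp2-depleted nuclei its log2 fold change from P1 to P7 was 0.36 ± 0.52 (SE), with an adjusted p of 1.00, beside 2.76 for Mapt. Gm11659, a long noncoding gene antisense within Mapt, had 14 reads in all, and Sppl2c, the nearest coding gene upstream, had 2. Map1a overlaps the ends of Trp53bp1 (1126 reads) and Ppip5k1 (2698 reads) on the opposite strand, so reads there could be ambiguous. The antisense gene Gm10558 within Map2 had 253 reads, Gm26559 at Map1b 129, Gm48249 at Map7 255, Gm26705 at Map6 28 and 4930405J17Rik at Map7 10, and no overlapping gene of Map4 in the tables had a read.

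The 5 genes whose log2 CPM was most like that of Mapt over the 21 libraries, among 7097 genes with a read in at least 18 of them, were Gm17276 (Pearson r = 0.860), the autophagy gene Wipi1 (0.837), the Rac regulator Chn1 (0.833), the receptor gene Gpr146 (0.823) and the BRCA1-A complex gene Babam2 (0.818). These values share libraries and depth and are a description without a test. With Spearman's measure 2 of the 5 genes stayed among the first 5, and with a read required in all 21 libraries 3 did. The other MAP genes were less like Mapt, with an r of 0.597 for Map4 (rank 188), 0.470 for Map7, 0.316 for Map2, -0.22 for Map1a and -0.25 for Map1b.

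Other genes of the microtubule system were followed as 4 lists. Of 36 other microtubule-binding proteins, 32 were tested. None was called from P1 to P7 in Casp2-depleted nuclei or between genotypes on any day, and none was called higher at P14. From P7 to P14, 3 were called lower in controls and 3 in Casp2-depleted nuclei. Over all genes 1.93% and 3.01% were called in these steps, nearly all of them lower at P14, and these shares apply to the lists below too. Clip1, a plus-end tracking protein, fell in both, from 765 ± 283 (SD, n = 4) to 116 ± 65.2 CPM (SD, n = 3) in controls and from 812 ± 204 (SD, n = 4) to 55.8 ± 40.0 CPM (SD, n = 3) in Casp2-depleted nuclei, with log2 fold changes of -2.72 ± 0.63 and -3.86 ± 0.67 (SE) and adjusted p of 0.00272 and 2.51e-06. Of 32 alternative settings, 27 and 32 called it. In controls Clip1 was not called when the fit held the share of reads outside genes.

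The minus-end binding protein gene Camsap1 fell in controls from 62.5 ± 34.8 CPM (SD, n = 4) to 0 reads, with an adjusted p of 0.00186. Against a floor of 3 reads over the P14 group this was at least 48.0-fold lower. Such bounds, here and for the genes at 0 reads below, cover counting error only and leave out the spread between libraries. The log2 fold change of Camsap1 from P7 to P14 in Casp2-depleted nuclei was -0.95, without a call. Genes with a read numbered 7628 to 13651 in P14 control and 14416 to 17614 in P7 control libraries. In Casp2-depleted libraries they numbered 9428 to 12327 at P14 and 14006 to 17770 at P7. Map1s, the small relative of MAP1A and MAP1B, went from 244 reads to 1 read in the control groups, with an adjusted p of 0.0404, and was called in 11 of 32 alternatives. Its log2 fold change in Casp2-depleted nuclei was -1.76, without a call. In Casp2-depleted nuclei, Mapre2, which encodes the end-binding protein EB2, fell by 3.17 on the log2 scale with an adjusted p of 0.0247, and Camsap2 fell by 2.71 with an adjusted p of 0.0423, but they were called in only 18 and 8 of 32 alternatives. When replicate numbers were blocked, the adjusted p of Mapre2 in edgeR's test was 0.0901, and its call was lost. The control log2 fold changes of Mapre2 and Camsap2 were -1.73 and -1.41, without a call. The median log2 fold change of the list was -1.18 in controls and -1.32 in Casp2-depleted nuclei, beside -0.75 and -0.61 for all genes, and with all-zero groups set at their bound -1.17 and -1.22, beside -0.53 and -0.43.

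Of 17 tubulin genes 12 were tested, and 1 was called, Tuba4a, an alpha-tubulin gene, which went from 187 reads at P7 to 0 at P14 in Casp2-depleted nuclei, at least 25.6-fold lower, with an adjusted p of 0.0479. It was called in 8 of 32 alternatives and had an adjusted p of 0.121 in edgeR's test when replicate numbers were blocked. In controls its log2 fold change in this step was -0.71, without a call. The list's median from P7 to P14 was -1.68 in controls and -3.33 in Casp2-depleted nuclei by the fit, but -0.27 and -1.15 with all-zero groups at their bound, so the size of the fitted medians rests on genes with few reads.

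Of 18 kinases, phosphatase subunits and related factors that act on tau and MAPs, 17 were tested. Dyrk1a, a kinase that phosphorylates tau, fell from P7 to P14 in both genotypes, from 282 ± 176 (SD, n = 4) to 14.8 ± 13.1 CPM (SD, n = 3) in controls and from 264 ± 116 (SD, n = 4) to 10.7 ± 9.73 CPM (SD, n = 3) in Casp2-depleted nuclei. Its log2 fold changes were -4.24 ± 0.89 and -4.61 ± 0.91 (SE), with adjusted p of 0.000505 and 7.05e-05, and 28 and 29 of 32 alternatives called them. Dyrk1a was not called in either genotype when the fit held the share of reads outside genes, which was higher at P14 than in most P7 libraries. Ppp2cb, a catalytic subunit gene of the phosphatase PP2A, went from 174 reads to 0 in controls, at least 22.5-fold lower with an adjusted p of 0.0292. In Casp2-depleted nuclei its log2 fold change in this step was 0.51, without a call. Csnk1d, which encodes casein kinase 1 delta, went from 186 reads to 0 in Casp2-depleted nuclei, at least 25.5-fold lower with an adjusted p of 0.0230. In controls its log2 fold change in this step was 0.94, without a call. No gene of this list was called in another comparison, and its median from P7 to P14 was -1.40 in controls and -2.50 in Casp2-depleted nuclei, beside -0.75 and -0.61 for all genes. With all-zero groups at their bound the medians were -1.38 and -2.30, beside -0.53 and -0.43.

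Of 22 tubulin-modifying and severing enzymes all were tested and edgeR called 0, with 5 and 3 at an unadjusted p below 0.05 from P7 to P14 in controls and Casp2-depleted nuclei. DESeq2 called 3 and 2 of them, limma-voom with TMM 4 and 2, and limma-voom with quantile normalization 1 and 4. The lowest unadjusted p were those of Ttll1, a tubulin polyglutamylase subunit, with 150 reads at P7 and 0 at P14 in controls and an adjusted p of 0.0895, and Sirt2, a tubulin deacetylase, with 181 reads at P7 and 0 at P14 in Casp2-depleted nuclei and an adjusted p of 0.0794. The log2 fold change of Ttll1 in Casp2-depleted nuclei was -0.59, and that of Sirt2 in controls was -7.95.

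**Figure D5:**
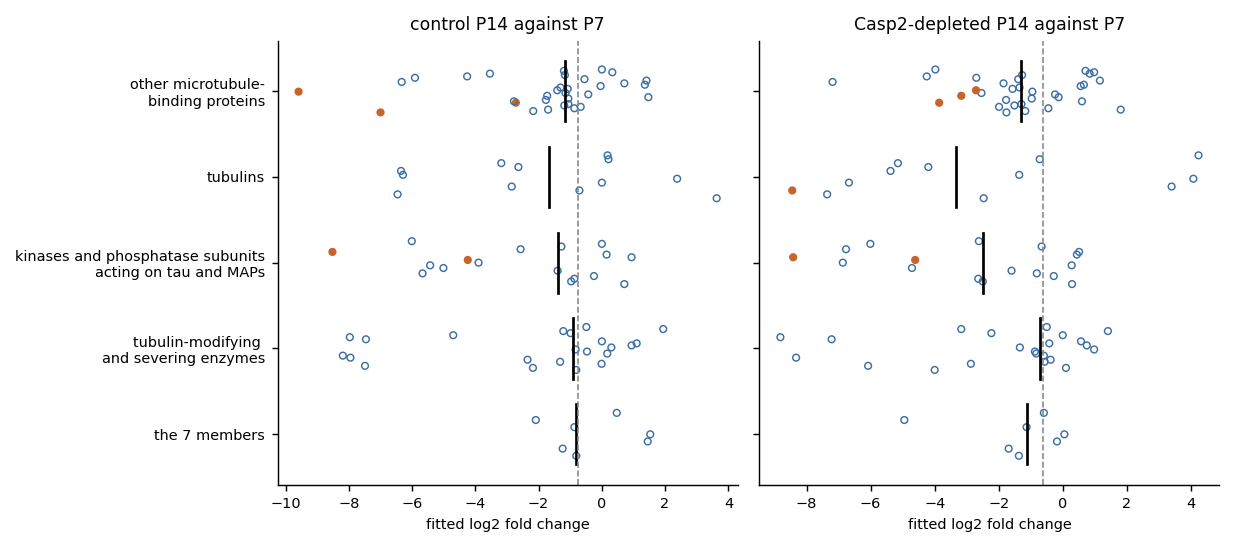
Fitted log2 fold changes from P7 to P14 (horizontal axes) of the genes of 4 lists and of the 7 MAP genes in control (left) and Casp2-depleted nuclei (right), with called genes filled in orange, a black bar at the median of each row and a dashed line at the median of all genes, -0.75 on the left and -0.61 on the right. No gene of any list was called higher at P14, and far-left points are mostly genes with 0 reads at P14.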

How the data were processed

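The authors aligned trimmed 3′ end (QuantSeq) reads to GRCm39 with STAR and deposited counts of reads per gene, made with HTSeq 2.0.3 over the whole gene, as whole numbers without normalization. The submitters' processing notes name STAR 2.6.1e, cutadapt 4.0 and FastQC 0.11.8. Molecular identifiers and the strand setting are not given in the sources used here. GENCODE vM39 named 56236 of 56923 identifiers. Rows for reads on no gene (34.3 to 76.1% of uniquely placed reads) stayed out of library sizes and tests.

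Groups follow the sample labels. R 4.3.3 and edgeR 4.0.16 were used to fit 6 group means to the 21 libraries by quasi-likelihood (TMM factors, 15 residual degrees of freedom, common biological coefficient of variation 1.5). Genes needed 10 or more reads overall and reads in 3 or more libraries. P-values were adjusted over all 20368 genes. Standard errors are the log2 fold change over the root of F, and intervals use 15 degrees of freedom. Log2 CPM has a prior count of 2. The fit was run on simulated counts, with changes planted only in genes with many reads and only in the P7 Casp2-depleted group. That run does not cover genes with few reads, such as Map6, or the steps to P14. Replicates differed by more than sampling noise (chi-square per degree of freedom 17.8 to 165.1 over 36 pairs). Nothing says whether pools of a group came from separate litters or sorts, so p-values refer to the spread between pools. The quasi-likelihood test draws each gene's spread toward that of all genes. Its p-values were close to those of a normal curve for the log2 fold change over its SE. They thus rest mostly on a spread shared over genes, not on each gene's own, and the intervals with 15 degrees of freedom are wider than these p-values imply.

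The file names call the replicate number a batch, so that libraries sharing a number and day were read as pairs. Their deviations from the group means correlated by -0.059 to 0.185 over 9 such pairs of control and Casp2-depleted libraries. The replicate block below held each number as the same term on all days, so pairing within a day was not fitted.

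The members and lists were chosen with earlier results of these data known. Named were all members, the called genes of each list (at most 5, otherwise the 2 with the lowest unadjusted p), the 5 genes most like Mapt, overlapping genes and the neighbours of Mapt. Alternatives were RLE factors, no filter, filterByExpr, DESeq2 1.42.0, limma-voom (limma 3.58.1) with TMM or quantile normalization, all 24 libraries, thinning to the smallest library, the replicate block and leaving out each library. The robust fit, a term for the share of reads outside genes, and the settings applied to the lists were added after seeing the data. Summaries used Python 3.11.15 and scipy 1.17.1.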

Additional observations from a re-analysis of the deposited data

Results flagged for a closer look

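Among 21 groups of 4 libraries, 1 had a library far from the others. Map1b was at 174 CPM in P7 Casp2-depleted replicate 4, where the other 3 libraries lay at 272 to 287 CPM. Chance alone gives such a gap in about 1 of 20 groups.

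The 3 libraries left out by the study entered only the alternative fit with all 24 libraries, and in some of them a MAP gene was above the highest control library of the same day, by CPM of reads on genes. In P1 control replicate 1 Map4 was at 649 CPM. In P14 control replicate 3, which had only 2049 genes with a read, Mapt was at 990 CPM and Map4 at 1159 CPM, while Map1a, Map1b, Map6 and Map7 had 0 reads. In P14 Casp2-depleted replicate 1, with 4285 genes detected, Map4 was at 1998 CPM and Map1b at 103 CPM.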

How the results depend on the processing

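No member was called in most settings, and the exceptions concern Mapt and Map4. In Casp2-depleted nuclei from P1 to P7, DESeq2, thinning to equal depth and the robust fit each called 1 member, Mapt. From P7 to P14, DESeq2, limma-voom with TMM and the robust fit each called 1, Map4, as did leaving out P14 control replicate 1 or replicate 4 (0 to 1 over the left-out libraries), and in controls limma-voom with TMM called 1, Map4. With the replicate number as a block no member was called, and Tuba4a (0 tubulins called, adjusted p 0.121) and Mapre2 (0.0901) lost their calls in Casp2-depleted nuclei from P7 to P14, while the block ended no other call of the genes named from the lists. The block by replicate number, shared over all days, turned 3 small values, Map1a from P7 to P14 in Casp2-depleted nuclei (-0.28), Map1b between genotypes at P1 (0.03) and Mapt in the second interaction (0.08). It does not test pairing within a day.

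Calls over all genes depend on the tool. DESeq2 called 1031, 46 and 1171 genes in the control step from P7 to P14 and in the Casp2-depleted steps from P1 to P7 and from P7 to P14, and 662 between genotypes at P14, where edgeR called 394, 5, 613 and 47. For limma-voom with TMM these numbers were 1150, 8, 830 and 116.

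The other changes of sign are in values that no test called. With a term for reads outside genes, Mapt from P7 to P14 in controls was 0.16, Map1a and Map7 in Casp2-depleted nuclei -0.94 and 1.24, Map4 and Map7 between genotypes at P1 -0.15 and -0.26, and Map4 in the first interaction 0.13. With all 24 libraries, Mapt in controls was 0.09, Map1a in Casp2-depleted nuclei from P7 to P14 -0.30, Map2 at P1 0.05 and Map1b at P14 0.18. RLE factors gave 0.14 and DESeq2 0.15 for Map2 from P7 to P14 in Casp2-depleted nuclei, and both gave 0.04 for Map1b at P14. Limma-voom with TMM gave -0.06 for Map1a from P7 to P14, -0.12 for Map1a at P1 and -0.15 for Map7 at P7, and with quantile normalization -0.43 for Map1a at P1, -0.19 for Map7 and 0.06 for Map4 at P7, and 0.18 for Map6 at P14. The cause was not tested.

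Over the left-out libraries, values that crossed 0 ran, from P7 to P14, from -0.95 to 0.44 for Map2 and from -0.45 to 0.76 for Map1a in Casp2-depleted nuclei and from -0.59 to 0.96 for Map7 in controls. Between genotypes they ran from -0.16 to 1.87 for Mapt and from -0.02 to 0.53 for Map4 at P1, from -0.14 to 0.54 for Map7, -0.13 to 0.74 for Map1b and -1.03 to 0.44 for Map6 at P7, and at P14 from -1.29 to 0.25 for Mapt, -0.91 to 0.01 for Map4, -1.15 to 0.20 for Map7, -1.44 to 0.41 for Map1b and -4.97 to 2.05 for Map6. In the second interaction the range was -1.02 to 0.52 for Mapt and -0.74 to 0.18 for Map4. The positive P14 values of Mapt, Map4 and Map7 and those of this interaction came without P14 control replicate 1, and that of Map6 without P14 control replicate 2, the P14 control library that held its reads.

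List counts from P7 to P14 moved as well. Of the other microtubule-binding proteins, 3 were called in controls, but 1 with all 24 libraries, 0 with a term for reads outside genes and 1 to 3 over the left-out libraries (1 without P14 control replicate 2). In Casp2-depleted nuclei 3 were called, 1 with RLE factors, limma-voom, all 24 libraries, thinning or a term for reads outside genes, 5 with the robust fit and 1 to 5 over the left-out libraries. Tuba4a was lost (0) with RLE factors, no filter, filterByExpr, all 24 libraries, thinning, the robust fit and a term for reads outside genes, and in 16 of 21 left-out libraries (0 to 1). Of the kinase and phosphatase list, 2 were called in controls, 0 with all 24 libraries or a term for reads outside genes and 1 to 2 over the left-out libraries, and 2 in Casp2-depleted nuclei, 4 with DESeq2, 1 with filterByExpr, limma-voom or all 24 libraries, 0 with a term for reads outside genes and 1 to 2 over the left-out libraries. For the tubulin-modifying enzymes, DESeq2 called 3 in controls and 2 in Casp2-depleted nuclei, limma-voom with TMM 4 and 2, with quantile normalization 1 and 4, and 0 to 1 were called in Casp2-depleted nuclei over the left-out libraries (Sirt2 without P14 control replicate 4).

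Depth limits Map6 and the genes with 0 reads at P14 most, and P14 has 3 libraries a group with the fewest reads.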
